A study of Mus musculus with 4 samples.

Results

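Semaphorins, plexins and neuropilins form a ligand and receptor system, and the transcripts of 10 of its genes were chosen by symbol for description in embryonic mouse microglia, the resident macrophages of the brain. They are the ligands Sema4a, Sema4b, Sema4d and Sema7a, the receptors Plxna1, Plxnb2, Plxnc1 and Plxnd1, and the co-receptors Nrp1 and Nrp2. Of the 10, 9 had a row in the tables, among 18526 genes in all, and all 9 were tested. Sema7a was not analysed here. The other 21 semaphorin and plexin genes were set beside them, and 17 of these had a row.

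Semaphorins are secreted or membrane-bound ligands best known as axon guidance cues, and plexins are their transmembrane receptors, whose cytoplasmic part acts on small GTPases. Neuropilins lack such a signalling part and hand secreted class 3 semaphorins to plexins of the A class, while also binding vascular endothelial growth factors. Class 4 semaphorins span the membrane, and several of them act between immune cells.

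Microglia were sorted by fluorescence from the telencephalon of C57BL/6 mice at embryonic day 14. The groups are Arid1a cKO, a conditional deletion of the chromatin remodeller subunit Arid1a, and control, labelled Arid1afl/fl, mice with the floxed gene. The labels do not name the Cre driver or say whether a sample is 1 embryo or a pool. Counts were analysed for 1 Arid1a cKO library (replicate 2) and 2 control libraries (replicates 5 and 6), and Arid1a cKO replicate 1 was not analysed here.

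The libraries held 17262261 counted reads for Arid1a cKO replicate 2, 18608979 for control 5 and 13774075 for control 6. Values below are CPM, reads scaled by library size, here with TMM factors. Control means are given ± SD over n = 2, and the Arid1a cKO value has no replicate error. Arid1a itself had 68.9 CPM in the Arid1a cKO library, against 109 CPM in control 5 and 130 CPM in control 6, lowest where its label says and not past the test (edgeR adjusted p = 0.901). Reads from exons outside the floxed part of the gene can remain. All 10 microglia markers were detected in every library. Control 5 stood apart by its zeros, with 404 genes at 0 reads that had 20 or more in both other libraries, against 41 such genes in the Arid1a cKO library and 49 in control 6.

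Sema4a and Nrp2 stood furthest below both controls, and Plxna1 and Plxnb2 stood above both. Sema4a was at 0.292 times control 5 and 0.171 times control 6, and Nrp2 at 0.515 and 0.266 times. Plxnb2 was at 2.00 and 1.19 times the controls, and Plxna1 was at 4.01 times control 6 while control 5 had 0 reads of it. Sema4d and Nrp1, among the most abundant of the genes, lay between the controls, and Plxnd1, Plxnc1 and Sema4b lay below both by less than 2-fold. None of these differences passed the edgeR quasi-likelihood test over all genes.

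Of the 9 genes, 0 passed that test at an adjusted p of 0.05, where 6 of 15236 tested genes passed (0.0394%). At an unadjusted p under 0.05 there were 2 of the 9, Sema4a and Nrp2, both lower in the Arid1a cKO library, beside 3.54% of all tested genes in that direction. The DESeq2 Wald test called 1 of the 9, Sema4a (log2 fold change -2.22, SE 0.65, adjusted p = 0.0348), where it called 1.93% of the genes it adjusted. Over the edgeR alternatives the adjusted p of Sema4a ran from 0.203 to 0.685. With 1 knockout library the spread comes from the controls alone, and since no label ties the samples to separate animals, p-values measure a spread that may be technical.

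**Figure D1:**
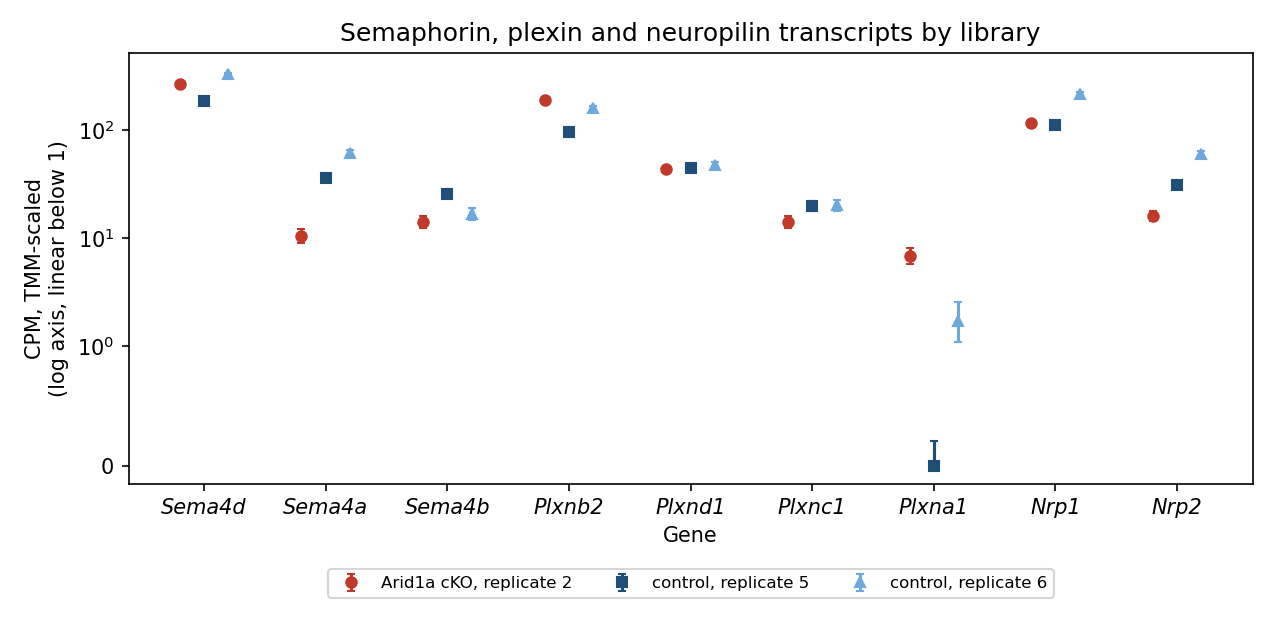
Transcript level of the 9 measured genes in each library, as TMM-scaled CPM on a log axis that is linear below 1, with exact Poisson 95% intervals that cover counting error only. Sema4a and Nrp2 are lowest in the Arid1a cKO library (10.4 and 16.0 CPM), Plxnb2 is highest there (191 CPM), and Plxna1 has 0 reads in control 5.

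Compared per kilobase of exon, Sema4d had the highest level of the 9 in the Arid1a cKO library, 35.1 CPM per kilobase, followed by Plxnb2 at 24.8 and Nrp1 at 11.9. On the same scale Plxnd1 had 5.94 there, Sema4b 2.48, Sema4a 1.92, Plxnc1 1.69, Nrp2 1.35 and Plxna1 0.756. The order in controls ran from Sema4d at 33.8 ± 13.4 CPM per kilobase (SD, n = 2) through Nrp1 (16.8 ± 7.75) and Plxnb2 (16.6 ± 5.99) to Sema4a (8.94 ± 3.32). Plxnd1 (6.30 ± 0.226), Nrp2 (3.87 ± 1.75), Sema4b (3.76 ± 1.13), Plxnc1 (2.39 ± 0.0166) and Plxna1 (0.0941 ± 0.133) followed. Between neighbours in the order of controls, the control values overlapped for Nrp1 with Plxnb2 and for Nrp2 with Sema4b, and not for the other neighbours. Sema4a thus ranked below Plxnd1 and Sema4b in the Arid1a cKO library and above both in controls.

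The sequences around the start sites of Sema4a, Nrp2 and Nrp1 are shown because Sema4a and Nrp2 were the lowest against controls and Nrp1 is the paralog of Nrp2 that was not. They come from RefSeq on GRCm38.p6 and run from 250 bases before the annotated start to 50 after it, taking for each gene the window nearest to the deposited gene start. The windows are chr3:88461133-88461432 (minus strand) for Sema4a, chr1:62703067-62703366 (plus strand) for Nrp2 and chr8:128358823-128359122 (plus strand) for Nrp1. Each is printed 5′ to 3′ on the gene's strand, with capitals marking GGGCGG, the GC box bound by Sp1, on either strand.
Sema4a: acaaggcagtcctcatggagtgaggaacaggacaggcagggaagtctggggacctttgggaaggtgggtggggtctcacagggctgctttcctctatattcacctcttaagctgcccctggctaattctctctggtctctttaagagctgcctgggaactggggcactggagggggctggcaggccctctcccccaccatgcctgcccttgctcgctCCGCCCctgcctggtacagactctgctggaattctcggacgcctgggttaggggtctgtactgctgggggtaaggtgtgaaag
Nrp2: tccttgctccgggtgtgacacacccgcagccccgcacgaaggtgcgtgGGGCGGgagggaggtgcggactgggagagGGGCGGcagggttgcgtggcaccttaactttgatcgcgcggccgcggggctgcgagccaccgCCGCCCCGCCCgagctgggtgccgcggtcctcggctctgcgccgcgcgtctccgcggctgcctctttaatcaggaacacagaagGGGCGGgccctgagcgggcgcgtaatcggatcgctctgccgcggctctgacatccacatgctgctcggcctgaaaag
Nrp1: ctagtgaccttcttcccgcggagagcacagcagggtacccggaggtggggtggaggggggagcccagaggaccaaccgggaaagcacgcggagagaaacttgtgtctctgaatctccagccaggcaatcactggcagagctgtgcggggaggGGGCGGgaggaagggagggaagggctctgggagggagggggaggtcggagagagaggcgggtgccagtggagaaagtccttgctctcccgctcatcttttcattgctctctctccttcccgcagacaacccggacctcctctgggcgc
The Nrp2 window held 37 CG dinucleotides and 5 GC boxes, of which a neighbouring pair shares a base. The Nrp1 window held 14 CG dinucleotides and 1 GC box, and the Sema4a window held 4 and 1, against a median of 7 CG dinucleotides over 32851 windows of the same length. Sema4a has other RefSeq starts further from the deposited gene start. Their windows held 7, 14 and 5 CG dinucleotides and 2, 1 and 0 GC boxes. The share of G and C bases was 59.7% in the printed Sema4a window, 70.7% in that of Nrp2 and 64.0% in that of Nrp1. The printed windows of Sema4a and Nrp2 thus differ in base composition.

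Of the 9 measured genes, 8 had such a window and the nearest window of 7 held GGGCGG, which 35.7% of all windows hold. The one without it belongs to Sema4d, whose nearest RefSeq start lies 37064 bases from the deposited gene start. That of Plxnb2 lies 2831 bases from it and that of Nrp1 469 bases. In CG dinucleotides these nearest windows held 37 (Nrp2), 30 (Plxnc1), 26 (Sema4b), 23 (Plxnd1), 15 (Plxnb2), 14 (Nrp1), 4 (Sema4a) and 2 (Sema4d). The median over all windows was 7, and the part of base composition in the share with GGGCGG was not tested. GAGGAAGT, a site of the myeloid factor PU.1, was in 0 of the 8 (3.20% of all windows), TGANTCA, the AP-1 site, in 0 (7.81%) and TATAAA, the TATA box, in 0 (13.6%), all on both strands. No match says only that these letters are not in the window.

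Of the ligands, Sema4a is a membrane semaphorin known for T cell costimulation. Its gene (ENSMUSG00000028064) is on chromosome 3 from 88435959 to 88461182, minus strand, in GRCm38, the build that the deposited positions match. Its reads numbered 190 in the Arid1a cKO library, 638 in control 5 and 823 in control 6. Scaled, these are 10.4 CPM (exact Poisson interval 8.97 to 11.99) against 35.6 and 61.0 CPM, so the Arid1a cKO library was the lowest and its interval met neither control's. The log2 fold change was -2.21 (SE 0.60, edgeR adjusted p = 0.45), and the library log2 ratios were -1.76 over control 5 and -2.54 over control 6.

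Sema4d (ENSMUSG00000021451), also called CD100, is a class 4 semaphorin abundant on lymphoid and myeloid cells, with plexins of the B class and Cd72 as receptors. It lies on chromosome 13 from 51701246 to 51793747, minus strand. It had 4924 reads in the Arid1a cKO library, against 3347 in control 5 and 4480 in control 6, or 270 CPM against 187 and 332 CPM. The Arid1a cKO library lay between the controls, and the log2 fold change was 0.06 (SE 0.43, edgeR adjusted p = 1.00). Its sign depended on the control, with log2 ratios to control 5 and control 6 of 0.53 and -0.30.

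Sema4b (ENSMUSG00000030539), another membrane-spanning ligand of the class, lies on chromosome 7 from 80186841 to 80226527, plus strand. It had 256 reads in the Arid1a cKO library, against 461 and 226 reads in controls 5 and 6, or 14.01 CPM against 25.7 and 16.7 CPM. Both controls lay above it, control 6 by a small margin (log2 ratios -0.87 over control 5 and -0.26 over control 6, edgeR adjusted p = 1.00).

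The balance of Sema4a and Sema4d within the class can be read inside each library, without any scaling between libraries. Sema4a made up 3.43% of the 5537 reads of 6 class 4 semaphorin genes in the Arid1a cKO library (exact binomial interval 2.97% to 3.95%). It made up 13.8% of 4624 reads in control 5 (12.8% to 14.8%) and 14.04% of 5860 reads in control 6 (13.2% to 15.0%). The intervals of the controls overlapped each other, and that of the Arid1a cKO library met neither. Sema4d took 88.9% of the class 4 reads in the Arid1a cKO library, against 72.4% in control 5 and 76.5% in control 6. These intervals cover counting error only, and with 1 knockout library the difference has no replicate check.

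**Figure D2:**
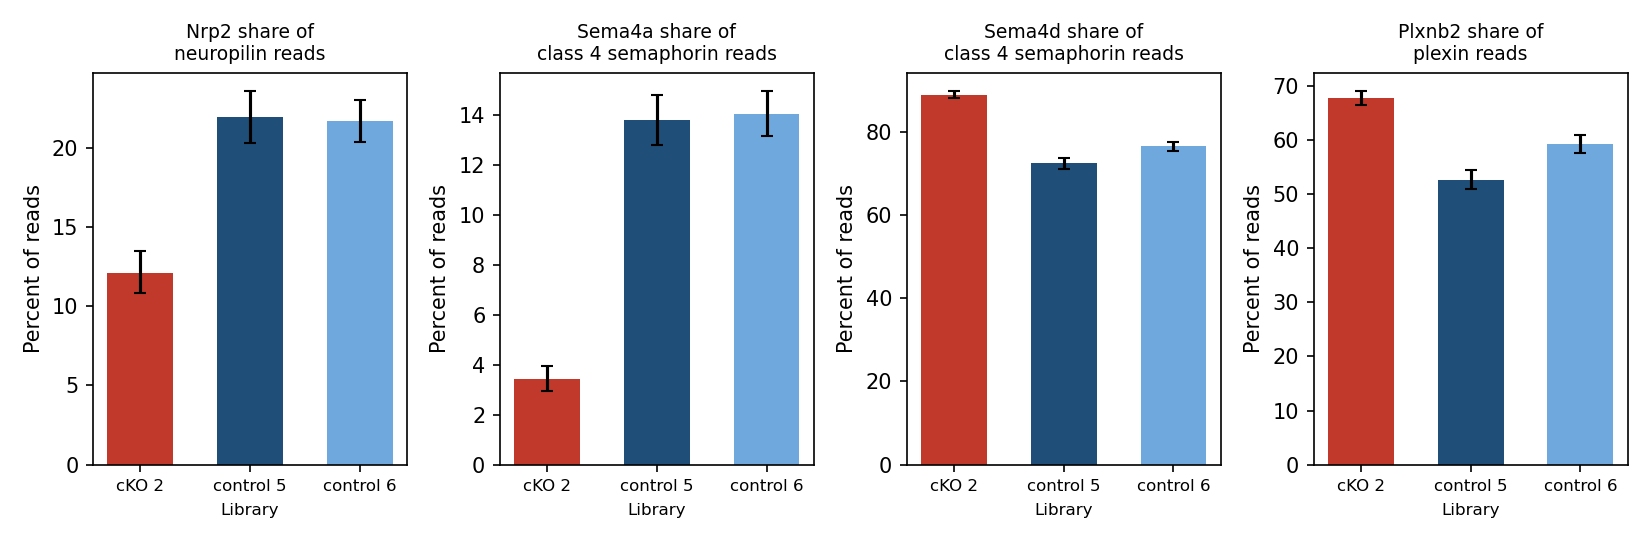
Share of reads within 3 gene groups in each library, in percent, with exact binomial 95% intervals that cover counting error only. Nrp2 has 12.1% of neuropilin reads and Sema4a 3.43% of class 4 semaphorin reads in the Arid1a cKO library, while both controls have 21.7% to 21.9% and 13.8% to 14.04%.

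Of the neuropilins, Nrp2 (ENSMUSG00000025969) is the co-receptor best known for Sema3f and for the lymphatic growth factor Vegfc. It lies on chromosome 1 from 62703285 to 62818695, plus strand. It had 293 reads in the Arid1a cKO library, against 558 in control 5 and 815 in control 6, or 16.0 CPM (14.3 to 17.99) against 31.2 and 60.4 CPM. Both controls were higher, and the log2 fold change was -1.51 (SE 0.60, edgeR adjusted p = 0.799), with log2 ratios to control 5 and control 6 of -0.95 and -1.90.

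Nrp1 (ENSMUSG00000025810), the co-receptor best known for Sema3a and Vegfa, lies on chromosome 8 from 128358604 to 128503363, plus strand. It had 2129 reads in the Arid1a cKO library, against 1990 in control 5 and 2948 in control 6. At 117 CPM against 111 and 218 CPM the Arid1a cKO library lay between the controls, close to control 5, with a log2 fold change of -0.50 (SE 0.48, edgeR adjusted p = 1.00). The log2 ratio was 0.07 to control 5 and -0.91 to control 6.

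The balance of the neuropilins was close in both controls and different in the Arid1a cKO library. Nrp2 made up 12.1% of 2422 neuropilin reads in the Arid1a cKO library (exact binomial interval 10.8% to 13.5%), against 21.9% of 2548 in control 5 (20.3% to 23.6%) and 21.7% of 3763 in control 6 (20.4% to 23.0%). The difference from the control mean was -9.68 percentage points, and it was -9.56 without control 5 and -9.80 without control 6. Leaving out a control, chosen after seeing the data, does not test the 1 Arid1a cKO library, and the controls were close. The binomial intervals cover counting error only, and with 1 knockout library the difference has no replicate check. The summed neuropilin level was 133 CPM in the Arid1a cKO library, against 142 CPM in control 5 and 279 CPM in control 6.

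In bulk libraries, fewer cells of a type and less RNA per cell cannot be told apart. Microglia markers were lower in the Arid1a cKO library too, which was the lowest in 8 of 10 (31.1% of all tested genes), with a summed level of 14435 CPM against 19093 and 26706 CPM in controls, and no marker was at 0. Of the 10, 0 passed the edgeR test (5 lower at an unadjusted p under 0.05, beside 3.54% of all tested genes), while the DESeq2 Wald test called 3 lower (beside 1.93% of all genes it adjusted, in either direction), Aif1, Sall1 and Tmem119. Endothelial cells are known for Nrp1, Nrp2 and Plxnd1, and 12 of their 13 markers had a row and summed to 45.6 CPM in the Arid1a cKO library, against 47.0 CPM in control 5 and 42.6 CPM in control 6. The 12 lay on both sides of the controls. Pecam1 had 3.89 CPM in the Arid1a cKO library, against 20.5 and 27.3 CPM in controls 5 and 6, and Tie1 (0.219 CPM against 2.96 and 4.59) and Cdh5 (0.657 CPM against 1.95 and 2.45) were also lowest there. Egfl7 had 14.2 CPM in the Arid1a cKO library, against 0.168 and 1.41 CPM in controls, and Cldn5 had 6.90 CPM against 1.79 and 0 CPM. Erg, Esam and Sox17 had 10 to 27 reads in the Arid1a cKO library and 0 in both controls, and exons of Gm37587 on the opposite strand cover 16.8% of the exon bases of Sox17. Tek had 1 read in the Arid1a cKO library and 80 in control 5, and has no row in the table of control 6. The part of either marker list in the results for Sema4a and Nrp2 was not tested.

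Of the plexins measured, Plxnb2 (ENSMUSG00000036606) had the most reads in each library. It is a receptor for class 4 semaphorins that is widely expressed in the developing brain and in macrophages. It lies on chromosome 15 from 89155549 to 89171120, minus strand. It had 3493 reads in the Arid1a cKO library, against 1714 in control 5 and 2175 in control 6. At 191 CPM (185 to 198) against 95.7 and 161 CPM the Arid1a cKO library was the highest, though the controls lay further from each other than the Arid1a cKO library from control 6. The log2 fold change was 0.57 (SE 0.42, edgeR adjusted p = 0.987), with log2 ratios to control 5 and control 6 of 1.00 and 0.25.

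Plxna1 (ENSMUSG00000030084) partners with neuropilins for class 3 semaphorins and, in myeloid cells, with Trem2 and Tyrobp. It lies on chromosome 6 from 89316314 to 89362620, minus strand. Its reads numbered 125 in the Arid1a cKO library against 0 and 23 in controls 5 and 6, or 6.84 CPM (5.70 to 8.15) against 0 and 1.70 CPM. It was thus at least 40.8-fold higher than control 5, computed at 3 reads for that library, and 4.01-fold higher than control 6 (log2 fold change 3.01, SE 2.05, edgeR adjusted p = 0.959). In 6 of the 26 family genes with a row, control 5 had 0 reads and both other libraries had some, or 23.1% of them, beside 10.4% of all genes shared by the tables. Besides Plxna1 these were Plxna3, Plxnb1, Sema3c, Sema3e and Sema5b. Exons of Gm26811 on the opposite strand cover 10.7% of the exon bases of Plxna1, and the kit does not mark strand, so reads there cannot be told apart.

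Plxnd1 (ENSMUSG00000030123), a receptor for Sema3e best known in blood vessels, varied least of the 9 between libraries. It lies on chromosome 6 from 115954811 to 115995005, minus strand, and had 792, 802 and 636 reads in the Arid1a cKO library, control 5 and control 6. That is 43.4 CPM in the Arid1a cKO library, against 44.8 and 47.1 CPM in controls, so the Arid1a cKO library was the lowest by a small margin. Its Poisson interval, 40.4 to 46.5 CPM, holds the value of control 5 and not that of control 6. The log2 fold change was -0.08 (SE 0.45, edgeR adjusted p = 1.00), which does not show that the level was the same.

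Plxnc1 (ENSMUSG00000074785), the receptor of Sema7a, lies on chromosome 10 from 94790866 to 94944835, minus strand. It had 258 reads in the Arid1a cKO library, against 356 in control 5 and 271 in control 6. The Arid1a cKO library was lowest, at 14.1 CPM (12.5 to 16.0) against 19.9 and 20.1 CPM, and the controls lay close together at 19.98 ± 0.139 CPM (SD, n = 2). The log2 fold change was -0.50 (SE 0.60, edgeR adjusted p = 1.00), with library log2 ratios of -0.49 and -0.50. This difference exceeded the gap between the controls, and the edgeR test did not call it. That gap is below counting error, as the Poisson intervals were 17.9 to 22.1 CPM in control 5 and 17.8 to 22.6 CPM in control 6. It is thus no measure of the spread between controls.

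**Figure D3:**
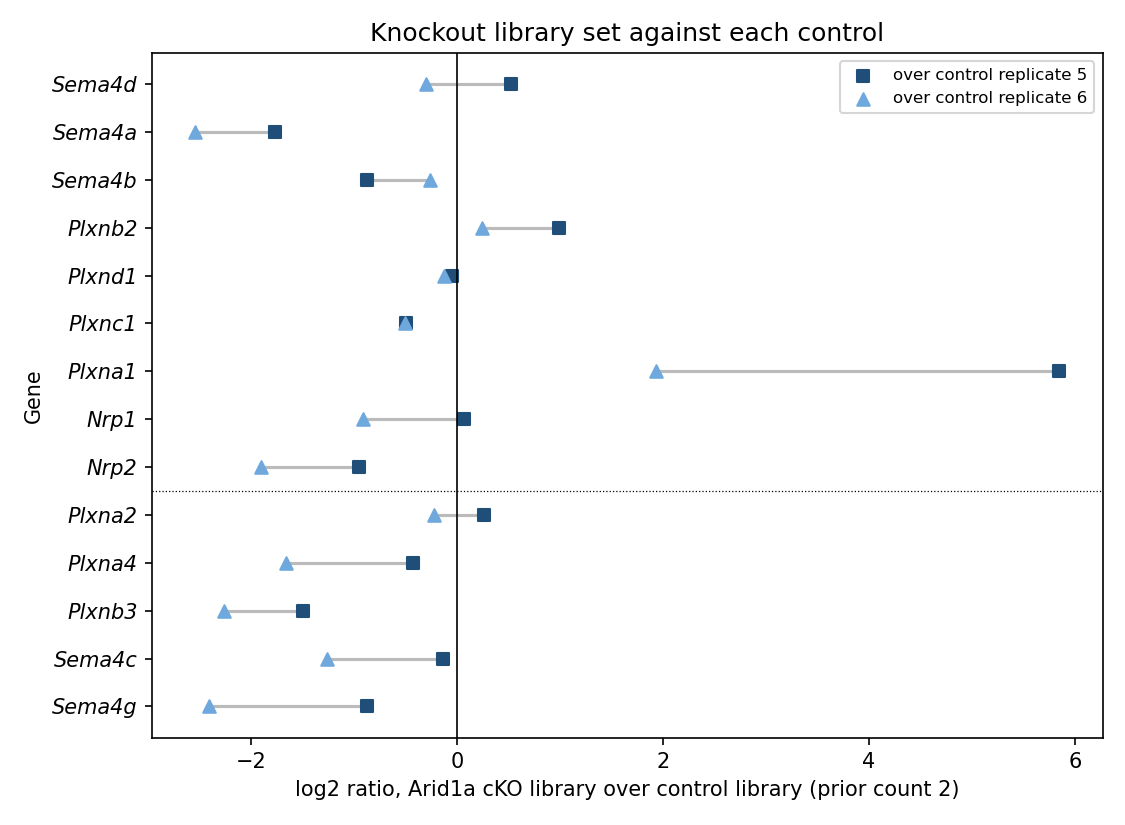
Log2 ratio of the Arid1a cKO library over control 5 (squares) and over control 6 (triangles), with a prior count of 2, for the 9 genes (above the dotted line) and the other family genes at a mean of 5 CPM or more. Both ratios share the Arid1a cKO library, and a line that crosses 0, as for Sema4d and Nrp1, marks a gene that lies between the controls.

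The 9 genes did not all lie on one side of the controls. The Arid1a cKO library was below both controls in 5 of them, where it was below both in 31.1% of all tested genes, and above both in 2, where the share over all was 38.0%. At 2-fold or more from both controls there was 1 lower gene, Sema4a (7.56% of all tested genes), and 1 higher gene, Plxna1 (9.84%). The median log2 fold change was -0.50, beside 0.05 over all tested genes. The median library log2 ratio was -0.05 over control 5 and -0.30 over control 6. The comparisons with the controls share the Arid1a cKO library. Summed over the family, plexin transcripts stood at 282 CPM in the Arid1a cKO library, against 182 CPM in control 5 and 272 CPM in control 6, and Plxnb2 made up 67.8% of plexin reads there, against 52.7% and 59.3%.

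In the authors' deposited table against control 5, Sema4a (ratio 0.321) and Plxna1 (ratio 269) were marked significant, among 29.5% of its genes. In the authors' deposited table against control 6, Sema4a (ratio 0.184), Nrp2 (0.287) and Plxna1 (4.34) were marked, among 18.7% of its genes. Each of those tables sets 1 library against 1, with a count of 0 replaced by 0.5 reads, which sets the size of the Plxna1 ratio over control 5. Every marked gene had an absolute log2 ratio of at least 1.59. Members with smaller ratios were thus unmarked whatever their p-value, as with Plxnb2 against control 5 (log2 ratio 1.14).

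Among the other plexins and semaphorins, 5 and 12 had a row, and 0 of the 16 tested passed, nor did any in the DESeq2 Wald test. At an unadjusted edgeR p under 0.05 there was 1 lower, Sema5a, beside 3.54% of all tested genes in that direction. Plxnb3 was at 1.81 CPM in the Arid1a cKO library, against 5.31 and 9.11 CPM in controls 5 and 6, and Sema4g at 1.81 CPM against 3.41 and 10.1 CPM, both lowest in the Arid1a cKO library. Plxna4, a class A plexin of sensory axons, had 3.34 CPM against 4.52 and 10.8 CPM, and Sema4c had 5.97 CPM against 6.53 and 14.4 CPM. Plxna2, a class A plexin, had 13.7 CPM, between the 11.3 and 15.9 CPM of the controls. Sema5a, a semaphorin with thrombospondin repeats and below the level fixed for naming, is given after its values were seen. It had 0 reads in the Arid1a cKO library, against 133 in control 5 and 19 in control 6, or at least 45.2-fold below control 5 and at least 8.57-fold below control 6 when the Arid1a cKO library is set to 3 reads (edgeR adjusted p = 0.569). Sema4f had 25 reads in the Arid1a cKO library and none in either control, which is higher by at least 7.02-fold at 3 reads per control library. The class 3 semaphorins with a row were scarce. Sema3a had 7 reads in the Arid1a cKO library against 47 and 25, Sema3c 17 against 0 and 27, and Sema3e 9 against 0 and 26. Of the remaining class 5 and 6 genes, Sema6a had 77 reads in the Arid1a cKO library against 50 and 93, Sema6d 54 against 111 and 46, and Sema5b 23 against 0 and 39. Sema6b had 16 reads against 2 and 9, and Sema6c 8 against 0 and 0. Plxna3 had 119 reads in the Arid1a cKO library against 0 and 69, and Plxnb1, a receptor of Sema4d, had 21 against 0 and 8. None of these genes passed the edgeR test, and Sema6c was too low to be tested.

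Partners of these receptors were read from a list of 19 co-receptors and alternative receptors, of which 14 were tested and 0 passed (1 higher and 1 lower at an unadjusted p under 0.05). Among these, the Arid1a cKO library was the highest in 7 and the lowest in 4, and the median log2 fold change was 0.50. The shares over all tested genes were 38.0% highest and 31.1% lowest, with a median of 0.05. Of the 15236 tested genes, 375 were higher and 539 lower (3.54%) at an unadjusted edgeR p under 0.05. Lilrb4a (ENSMUSG00000112148), an inhibitory receptor of myeloid cells, is listed because a human relative binds SEMA4A. It had 4143 reads in the Arid1a cKO library against 612 and 474 in controls 5 and 6. This gave 227 CPM against 34.2 and 35.1 CPM, a log2 fold change of 2.71 (SE 0.37, edgeR adjusted p = 0.0773). It passed with a filter of 5 CPM in 2 libraries (edgeR adjusted p = 0.0165) and in the DESeq2 Wald test (adjusted p = 6.21e-07). Over the edgeR alternatives its adjusted p ran from 0.0165 to 0.312. It has a close paralog, so reads may be split between copies and the value is uncertain. Another entry under the symbol Lilrb4a, ENSMUSG00000062593, overlaps it on the same strand. That entry had 2, 2 and 1 reads in the Arid1a cKO library, control 5 and control 6, and was not tested. Cd72, the lymphoid receptor of Sema4d, had 22.1 CPM in the Arid1a cKO library, against 119 and 39.1 CPM (edgeR adjusted p = 0.77), where control 5 stands far above the others. Exons of Tesk1 on the opposite strand cover 41.6% of the exon bases of Cd72, so reads there cannot be told apart. Trem2, a Plxna1 partner, had 82.6 CPM against 126 and 192 CPM, and Kdr, a growth factor receptor that pairs with Nrp1, had 14.3 CPM against 7.32 and 6.52 CPM. Tyrobp, the other Plxna1 partner named above, is given after its values were seen. It had 66.1 CPM in the Arid1a cKO library, against 44.6 and 30.2 CPM in controls 5 and 6.

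Of 40 plexin effectors, all 40 were tested and 0 passed. At an unadjusted edgeR p under 0.05 there were 1 higher and 2 lower, beside 375 higher and 539 lower (3.54%) of 15236 tested genes. The Arid1a cKO library was highest in 17 and lowest in 7 (38.0% and 31.1% over all tested genes). The median log2 fold change was 0.21, beside 0.05 over all. Dpysl2, also called CRMP2, the tubulin-binding protein through which Sema3a collapses growth cones, had 23473 reads in the Arid1a cKO library, against 60601 in control 5 and 40056 in control 6, or 1285 CPM against 3385 and 2968 CPM. The Arid1a cKO library was far below both controls, which lay close together, with a log2 fold change of -1.31 (SE 0.32, edgeR adjusted p = 0.361), and the DESeq2 Wald test called it (adjusted p = 0.00859). Over the edgeR alternatives its adjusted p ran from 0.227 to 0.674. Fyn, a kinase of the Sema3a pathway, had 8.87 CPM in the Arid1a cKO library, against 59.7 and 20.5 CPM. Mical1, an oxidase that disassembles actin downstream of plexins, had 48.9 CPM against 15.5 and 20.9 CPM, and Ssh1, a phosphatase of cofilin, had 40.9 CPM against 11.5 and 21.2 CPM, both highest in the Arid1a cKO library. Exons of Smpd2 on the opposite strand cover 15.0% of the exon bases of Mical1.

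**Figure D4:**
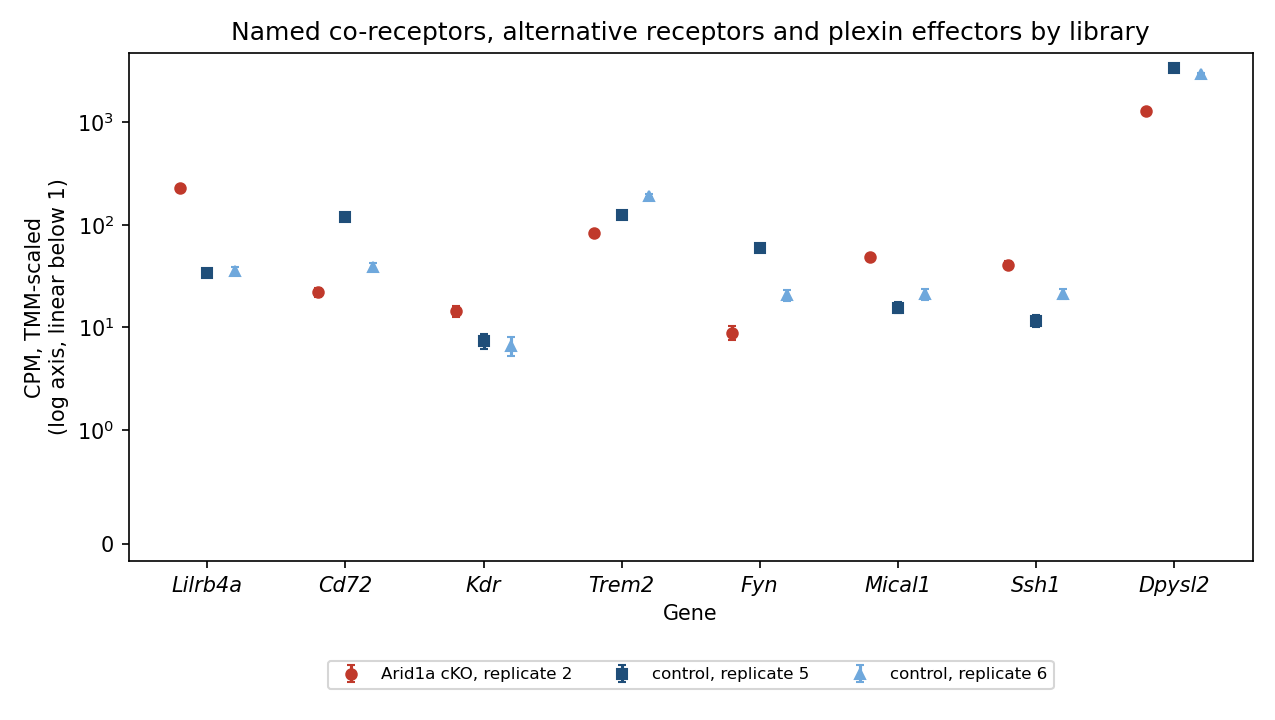
Level of the named co-receptors and effectors other than Tyrobp in each library, as TMM-scaled CPM on a log axis that is linear below 1. Bars are exact Poisson 95% intervals that cover counting error only. Lilrb4a, Mical1 and Ssh1 are highest in the Arid1a cKO library, and Dpysl2 is lowest there at 1285 CPM.

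Of 33 genes of other guidance systems, 21 were tested and 0 passed (0 at an unadjusted p under 0.05, and 0 in the DESeq2 Wald test), the Arid1a cKO library being highest in 10 and lowest in 2 (38.0% and 31.1% over all tested genes), and their log2 fold changes had a median of 0.53, beside 0.05 over all. The median library log2 ratio of the 21 was 1.84 over control 5 and 0.56 over control 6. Only 4 of the 21, Efna5, Epha4, Neo1 and Vegfb, were at a mean of 5 CPM or more. The others rest on few reads. Efna5, an ephrin ligand, had 9.96 CPM in the Arid1a cKO library against 5.81 and 2.45 CPM, and its receptor Epha4 had 5.15 CPM against 7.60 and 8.67 CPM. Neo1, a netrin and RGM receptor, had 7.34 CPM against 11.8 and 7.26 CPM, and Vegfb had 6.68 CPM against 8.04 and 6.37 CPM, with the Arid1a cKO library between the controls for both.

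The genes whose profile over the 3 libraries lay closest to that of Plxna1, by Euclidean distance of centred log2 CPM, were Eno3 (0.201), Plau (0.30) and Hyal5 (0.517). In the order Arid1a cKO, control 5 and control 6, Eno3 had 287, 3 and 47 reads, Plau had 366, 5 and 94, and Hyal5 had 325, 7 and 86. Over 3 libraries such likeness is a description only.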

How the data were processed

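RNA from sorted microglia was sequenced, and the authors deposited 2 tables, each setting Arid1a cKO replicate 2 beside 1 control. The submitters' processing notes name mm9 as build, and HTSeq 0.6.0, TopHat2 2.0.12 and Bowtie2 2.2.3 as tools. The deposited positions instead match GENCODE M21 on GRCm38 (89.9% identical, 99.9% overlapping). The deposited counts are raw reads per gene, and the deposited CPM values divide them by the library total. Ratio, log2 ratio and p-value columns of the authors were deposited too, without the name of their test in these sources.

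The tables share 16655 genes, with identical knockout counts in all of them. After filterByExpr, 15236 genes were tested with edgeR 4.0.16 in R 4.3.3 (TMM, quasi-likelihood F test, two-sided, Benjamini-Hochberg adjustment over all tested genes). Only 1 residual degree of freedom is left, from the controls, whose spread has to stand for that of the Arid1a cKO library. SE is the fold change divided by the root of its F statistic. Library ratios used a prior count of 2, bounds use 3 reads per library, and intervals are exact Poisson or binomial (Clopper-Pearson) at the 95% level.

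The members and lists were chosen with earlier results of these data known. Named were all members, other family genes at a mean of 5 CPM or more, and from each other list up to 4 genes at that level with the largest absolute log2 fold change, plus the 3 genes most like the member that changed most. The alternatives were DESeq2 1.42.0 size factors and Wald test, upper-quartile factors, other filters, another prior count, genes of either table, and each control left out. Some genes that the rule names are not reported here.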

Additional observations from a re-analysis of the deposited data

How the results depend on the processing

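Over all genes the edgeR test passed 6, but 0 without a filter on low counts, with upper-quartile factors, or with factors from DESeq2 (948, 818 and 895 at an unadjusted p under 0.05), 44 with a filter of 5 CPM in 2 libraries, 10 with genes of either table, and 222 in the DESeq2 Wald test. Of the 9 family members the DESeq2 Wald test passed 1 (Sema4a), and every edgeR alternative passed 0 (2 at an unadjusted p under 0.05 in each), with the lowest adjusted p at 0.203. Of the other listed family, partner and guidance genes, 0 passed, against 1 with the 5 CPM filter (Lilrb4a) and 2 in the DESeq2 Wald test (Lilrb4a and Dpysl2). The cause of these shifts was not tested. The number of members 2-fold or more from both controls was 2, and 2 to 3 with a control left out, an alternative chosen after seeing the data.

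The signs of the fold changes of Sema4d and Nrp1 depended on the control left out. Without control 5, Sema4d had a log2 value of -0.30 and Nrp1 of -0.91. Without control 6, they had 0.53 and 0.07. Plxna1 had 1.93 without control 5 and 5.98 without control 6, and Plxnb2 had 0.24 and 1.00. Left-out values set 1 library against 1 and carry no test. Under the other alternatives every member kept its sign, and Plxna1 has no value under the 5 CPM filter. No paired analysis was possible because the groups share no replicate number. Plxna1, Sema3a, Sema3c and Sema3e rest on few reads. Control 5, at 0 reads for Plxna1, Sema3c and Sema3e, held the most counted reads of the libraries (18608979). It also had the most shared genes at 0 reads, 2696, against 175 in the Arid1a cKO library and 1219 in control 6. The cause of its zeros was not tested.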

Other observations

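Markers of other cell types were present at low summed levels. Neuronal markers summed to 183 CPM in the Arid1a cKO library, against 232 and 240 CPM in controls 5 and 6, and neural progenitor markers to 127 CPM against 131 and 148 CPM. Border-associated macrophage markers summed to 399 CPM against 397 and 409 CPM, monocyte and neutrophil markers to 279 CPM against 280 and 307 CPM, erythroid markers to 44.0 CPM against 63.3 and 78.7 CPM, and mural markers to 13.9 CPM against 12.5 and 15.6 CPM. Abundant genes lead such sums, as Mrc1 had 243 CPM in the Arid1a cKO library, against 242 and 216 CPM in controls 5 and 6. Of 9 border-associated markers tested, the Arid1a cKO library was highest in 5 and lowest in 1 (38.0% and 31.1% over all tested genes). Lyve1, for example, had 6.68 CPM there, against 0 and 0.963 CPM. Near-equal sums thus do not show equal levels of each marker. No marker of any list passed the edgeR test, and the DESeq2 Wald test called 4, the microglia markers Aif1, Sall1 and Tmem119 and the erythroid marker Epor, all lower in the Arid1a cKO library.

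By the same rule of size, among the genes reported here, the microglia genes are Tmem119, Aif1, Sall1 and Cx3cr1, with log2 fold changes of -1.70, -1.66, -1.63 and -1.31. The endothelial genes are Egfl7 (4.18), Pecam1 (-2.62) and Kdr (1.04), and the mural gene is Rgs5 (-0.40). The neuronal genes are Syt1 (-1.18), Stmn2 (0.85) and Neurod6 (-0.81), and the progenitor genes are Slc1a3 (-1.76), Sox9 (0.56), Nes (-0.12) and Notch1 (-0.09). The border macrophage genes are Cbr2 (1.99), F13a1 (-0.52), Ms4a7 (-0.22) and Pf4 (-0.14). The remaining genes are Plac8 (1.57), S100a8 (0.58) and Itgal (-0.49) of monocytes and neutrophils, and Epor (-3.23) and Hba-a1 (-0.20) of erythroid cells.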
